A study of Mus musculus with 24 samples.

Results

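The Slco genes encode the organic anion transporting polypeptides (OATPs), and 6 of them were followed here across the livers of a Trib1 and Cebpa deletion study. They were taken by name, namely Slco1a1, Slco1a4, Slco1b2, Slco2a1, Slco2b1 and Slco3a1, from 54432 genes in the table. All 6 passed the minimum of a mean of 1 normalized count over all libraries that was set for testing, as did 19810 genes in all.

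RNA was sequenced from whole liver of male C57BL/6 mice, and 4 groups of 6 mice were compared. These were wild type (WT), Trib1 Flox/Flox (Trib1-KO), Cebpa Flox/Flox (Cebpa-KO) and mice with both genes floxed, Trib1;Cebpa Flox/Flox (DKO), where floxed DNA is cut out by the recombinase Cre. Every mouse, WT included, was given an adeno-associated virus carrying Cre (AAV-Cre) by intraperitoneal injection at 20 to 21 weeks of age. Livers were collected 4 weeks after injection, at midday, from mice on chow that had been without food for 4 h. The labels do not name the promoter that drives Cre, so the cells in which it acted are not given. They place 3 mice of each group in each of 2 cohorts.

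OATPs carry large organic anions into cells without using the sodium gradient. Their cargo includes bile acids, conjugated bilirubin, steroid sulfates, thyroid hormones, prostaglandins and many drugs. On the blood-facing membrane of the hepatocyte they make up, together with the sodium-dependent bile acid carrier, the main route by which such compounds enter the liver, and efflux pumps on the canalicular membrane then pass them into bile.

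The labels were first read against the targeted genes. Cebpa, the gene of the liver-enriched transcription factor C/EBPα, stood at 6019 ± 1057 normalized counts in WT (mean ± SD, n = 6, as for all group values below), at 2668 ± 359 in Trib1-KO, 82.2 ± 17.5 in Cebpa-KO and 82.4 ± 18.1 in DKO. Trib1, which encodes the pseudokinase that brings C/EBPα to a ubiquitin ligase, was 1224 ± 204 in WT and 4237 ± 358 in the group labelled Trib1-KO, against its label, with 333 ± 158 in Cebpa-KO and 732 ± 259 in DKO. With a single value per gene, loss of the deleted stretch of Trib1 cannot be read from the table, and the group is called the libraries labelled Trib1-KO. Libraries held 23385900 to 27190700 normalized counts, from an estimated 18640900 to 34286900 reads. Each is named below by its column's letter and number (A and B for WT, C and D for Trib1-KO, E and F for Cebpa-KO, G and H for DKO). WT library B3 was the least like its group, with a mean Pearson r of 0.956 with the other WT libraries over genes, where the other 5 had 0.961 to 0.964. The group means of Alb, a hepatocyte marker, lay between 356731 and 2295000 normalized counts.

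Scaled to the length of the main transcript, the order of the 6 genes was the same in all 4 groups, from Slco1b2, the most abundant, through Slco1a1, Slco2b1, Slco1a4 and Slco2a1 to Slco3a1. In WT their length-scaled levels were 6985 ± 1386, 2605 ± 709, 916 ± 155, 531 ± 189, 329 ± 49.0 and 20.5 ± 2.21 normalized counts per kb. Merged exon lengths gave the same order. Neighbours in this order were not always apart. Slco2b1 and Slco1a4 overlapped between libraries in WT, Cebpa-KO and DKO, Slco1a4 and Slco2a1 in WT and DKO, and Slco1a1 and Slco2b1 in the libraries labelled Trib1-KO. Slco1b2 made up 61.3% of the summed length-scaled level of the 6 genes in WT, 79.2% in the libraries labelled Trib1-KO, 55.5% in Cebpa-KO and 56.7% in DKO. The sum itself was 11386 ± 1708 in WT, 10849 ± 737 in the libraries labelled Trib1-KO, 8655 ± 482 in Cebpa-KO and 8959 ± 682 in DKO.

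**Figure D1:**
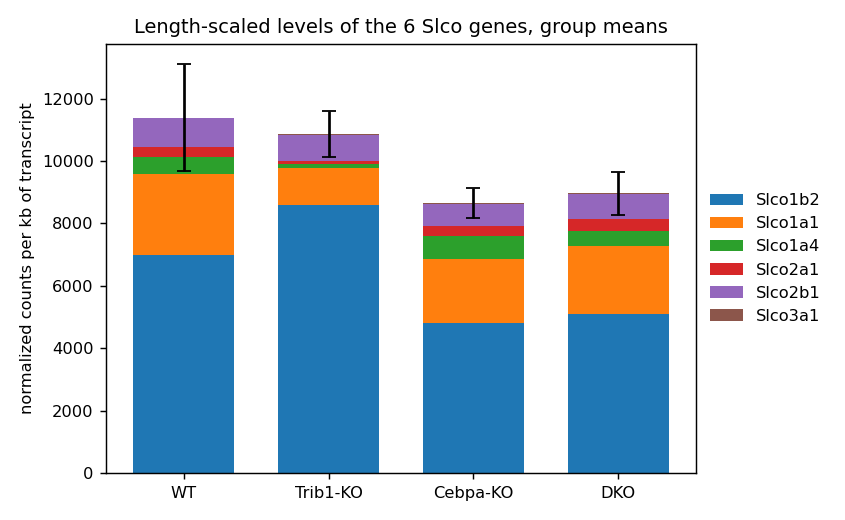
Stacked bars give the group mean of each gene in normalized counts per kb of its main transcript for the 4 groups, and the error bar is the SD of the summed level over 6 libraries. Slco1b2 fills 61.3% of the WT bar and 79.2% of the bar for the libraries labelled Trib1-KO, while the Slco1a1 segment shrinks from 22.9% to 11.0%.

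A cluster of Slco1 genes lies on chromosome 6 of GRCm38. Slco1b2 (ENSMUSG00000030236.10, 141629518 to 141686646, plus strand), Slco1a4 (ENSMUSG00000030237.14, 141805440 to 141856199, minus strand) and Slco1a1 (ENSMUSG00000041698.11, 141907282 to 141946962, minus strand) lie there in this order, with other genes between them. Slco2a1 (ENSMUSG00000032548.14) is on chromosome 9, 102988712 to 103096002, plus strand. Slco2b1 (ENSMUSG00000030737.17) and Slco3a1 (ENSMUSG00000025790.14) are on the minus strand of chromosome 7, at 99657804 to 99711340 and 74275419 to 74554780. The Slco1a genes resemble each other closely. Transcripts of the 6 genes, Slco1a5, Slco1a6 and Slco1c1 were compared in stretches of 31 bases. Of these stretches, 3.51% for Slco1a1 and 4.10% for Slco1a4 also occurred in another gene compared, and 0% for the remaining 4 of the 6. A share of Slco1a reads thus cannot be assigned by sequence alone. Gm5724 and Gm6614, protein-coding genes of the same stretch of chromosome 6, were not compared.

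Promoter windows were found in RefSeq (GRCm38.p6) for 5 of the 6 genes. The 250 bases before the annotated start are shown for the 4 genes whose levels changed, so that the upstream sequence of the gene that rose can be set beside those of the 3 that fell. All are written 5′ to 3′ on the gene's own strand, and capitals mark matches, on either strand, to the motifs named below. The windows are chr6:141629268-141629517 for Slco1b2, chr6:141946963-141947212 for Slco1a1, chr6:141856221-141856470 for Slco1a4 and chr9:103008237-103008486 for Slco2a1, whose RefSeq start lies inside the GENCODE gene.
Slco1b2: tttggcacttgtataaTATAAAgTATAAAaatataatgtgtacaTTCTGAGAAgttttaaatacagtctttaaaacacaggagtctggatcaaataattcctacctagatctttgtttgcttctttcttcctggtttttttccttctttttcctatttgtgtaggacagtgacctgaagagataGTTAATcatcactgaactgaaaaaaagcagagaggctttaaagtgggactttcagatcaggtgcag
Slco1a1: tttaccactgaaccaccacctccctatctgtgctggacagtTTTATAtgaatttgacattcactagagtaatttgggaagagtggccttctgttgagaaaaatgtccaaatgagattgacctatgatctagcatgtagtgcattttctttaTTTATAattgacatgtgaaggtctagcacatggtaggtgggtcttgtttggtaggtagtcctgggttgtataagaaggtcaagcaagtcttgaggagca
Slco1a4: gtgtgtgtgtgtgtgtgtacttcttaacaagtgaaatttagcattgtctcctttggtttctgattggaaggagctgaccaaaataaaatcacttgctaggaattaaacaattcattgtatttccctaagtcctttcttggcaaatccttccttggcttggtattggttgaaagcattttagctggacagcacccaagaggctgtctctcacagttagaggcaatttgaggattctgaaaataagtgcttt
Slco2a1: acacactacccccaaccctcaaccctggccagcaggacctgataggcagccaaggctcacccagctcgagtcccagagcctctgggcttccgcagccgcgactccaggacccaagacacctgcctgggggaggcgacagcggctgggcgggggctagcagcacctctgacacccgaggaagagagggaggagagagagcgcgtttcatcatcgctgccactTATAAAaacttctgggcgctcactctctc
The window of Slco2a1 was rich in G and C at 63.2%, against 33.6% for Slco1b2, 40.4% for Slco1a1 and 39.2% for Slco1a4, where the median of 32851 windows was 52.4%. Windows of 300 bases, 250 before to 50 after the start, were searched on both strands for TTGCNNAA, a C/EBP-like motif, which 10.8% of all windows hold, and no window of these genes held it. The STAT-like motif TTCNNNGAA, in 8.3% of all windows, occurred in Slco1b2 from -206 to -198 and in 2 of the 3 windows of Slco2b1. The letters GTTAAT, one side of the HNF1 motif, occurred in Slco1b2 from -66 to -61 and in 7.1% of all windows, while the full HNF1 palindrome, in 0.00913%, occurred in none of the 5 genes. TATAAA, a search added after the sequences had been seen, matched in 13.6% of all windows, in Slco2a1 from -29 to -24, at 2 places in Slco1b2 and at 2 in Slco1a1. A match says only that the letters are there.

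In the libraries labelled Trib1-KO, 3 of the 6 transporter genes fell against WT, the hepatocyte uptake genes Slco1a1 and Slco1a4 and the prostaglandin transporter gene Slco2a1, to between 0.216 and 0.448 of the WT level, and Slco1b2 rose 1.25-fold. Slco2b1 and Slco3a1 did not pass the test. Of 19810 genes tested, 22.7% passed in this comparison, 11.8% higher and 10.9% lower. A gene was called at an adjusted p (Benjamini-Hochberg over all genes tested) under 0.05 in limma, fitted to log2 of the normalized count plus 1, and fold changes are on that scale. The median log2 difference was -0.63 over the 6 genes and 0.01 over all genes. The plot of values by library shows the 6 genes in all 4 groups.

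**Figure D2:**
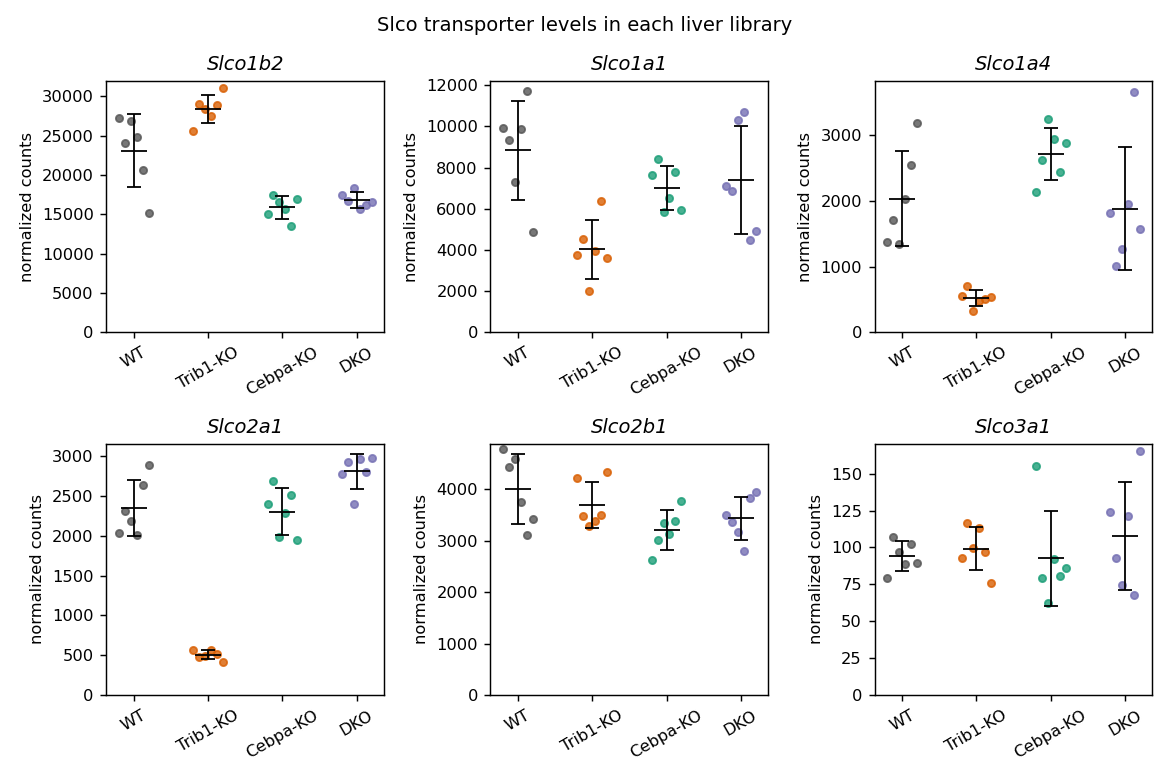
Each point is 1 library, in normalized counts on a linear axis from 0, and the black bars give the group mean and SD (n = 6). For Slco1a4 and Slco2a1 the libraries labelled Trib1-KO (330 to 698 and 414 to 568) lie below every library of the other 3 groups, and for Slco1b2 Cebpa-KO and DKO lie low.

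Slco1b2 encodes the main hepatocyte OATP of the mouse, the counterpart of the human OATP1B carriers, and takes up bile acids, bilirubin and many drugs. Its normalized counts in WT were 27230, 24013, 26877, 24773, 20590 and 15109 in A1 to A3 and B1 to B3. In the libraries labelled Trib1-KO they ran from 25582 over a median of 28620 to 31054, so that 5 of 6 lay above all WT libraries. Cebpa-KO stood lower, from 13544 over 16093 to 17491, and DKO from 15619 over 16603 to 18387. All but WT library B3 were thus above every library of those 2 groups. The group means were 23098 ± 4585 in WT, 28400 ± 1807 in the libraries labelled Trib1-KO, 15881 ± 1441 in Cebpa-KO and 16811 ± 975 in DKO.

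For Slco1b2 the log2 difference to WT was 0.32 ± 0.10 (SE) in the libraries labelled Trib1-KO (by limma with adjusted p = 0.0263), -0.52 ± 0.10 in Cebpa-KO (adjusted p = 0.00149) and -0.43 ± 0.10 in DKO (adjusted p = 0.0121). Exact permutation tests, 2-sided over 924 arrangements of 6 against 6 libraries with a smallest possible p of 0.00216, gave p = 0.0108, 0.0108 and 0.0173. Each permutation p is given before adjustment unless stated. The rise stayed called in 21 of 24 fits without 1 library and in 9 of 10 other settings. In the 10 other settings the rise ran from 0.32 to 0.63 on the log2 scale. Some fits did not reach the threshold. It was 0.21 without WT B3 (adjusted p = 0.0576), 0.30 without WT B2 (0.0593), 0.30 without D3 (0.0591) and 0.32 with only these 2 groups in the fit (0.0842), none of which passed. By the number in the column name, 2 libraries a group, it was 0.03 for number 1, 0.38 for number 2 and 0.56 for number 3, while the Cebpa-KO differences were -0.76, -0.53 and -0.27. With 2 groups in the fit the DKO difference did not pass either (adjusted p = 0.0748).

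Slco1b2 was the only one of the 6 genes called in Cebpa-KO against WT, where 9.82% of all genes passed and 5.22% were lower, and in DKO against WT, where 6.09% passed and 3.25% were lower. In both it was lower, by 1.43-fold and 1.35-fold. The median over the 6 genes was -0.18 in Cebpa-KO and -0.19 in DKO, against 0.01 and 0.00 over all genes. The 95% interval of the difference between DKO and Cebpa-KO for Slco1b2 ran from -0.13 to 0.30 on the log2 scale. Against the libraries labelled Trib1-KO, Slco1b2 in DKO was lower (log2 -0.76 ± 0.10, adjusted p = 3.13e-06), with no overlap between the groups, as for 8.74% of all genes.

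Slco1a1 encodes a carrier of steroid conjugates, bile acids and other anions that is known for its higher level in male than in female mouse liver. WT libraries A1 to A3 and B1 to B3 had 9931, 9338, 7312, 9887, 11722 and 4870 normalized counts. The libraries labelled Trib1-KO had 3764, 4537 and 1989 in C1 to C3 and 3958, 6373 and 3598 in D1 to D3. Of these, 5 lay below all WT libraries and D2 lay above WT B3. Cebpa-KO ran from 5840 over 7078 to 8413. DKO had 7128, 6869 and 10305 in G1 to G3 and 10690, 4506 and 4945 in H1 to H3, and it overlapped each of the others.

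The group means of Slco1a1 were 8843 ± 2406 in WT, 4036 ± 1427 in the libraries labelled Trib1-KO, 7022 ± 1067 in Cebpa-KO and 7407 ± 2608 in DKO. The fall in the libraries labelled Trib1-KO was 2.23-fold (log2 -1.16 ± 0.24, adjusted p = 0.000777, exact permutation p = 0.00433). Within the column numbers it was -1.36, -0.96 and -1.16. Cebpa-KO at -0.29 ± 0.24 and DKO at -0.28 ± 0.24 did not pass (adjusted p = 0.540 and 0.613), with 95% intervals from -0.79 to 0.20 and from -0.78 to 0.22.

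Slco1a4 encodes a carrier of bile acids and of cardiac glycosides such as digoxin, known in liver as a target of the xenobiotic receptors PXR and CAR. In WT it stood at 1377, 1706 and 1337 in A1 to A3 and at 2025, 2547 and 3188 in B1 to B3, so that the B libraries were above the A libraries. The libraries labelled Trib1-KO had 556, 698 and 330 in C1 to C3 and 479, 508 and 532 in D1 to D3, all below every WT library. Cebpa-KO ran from 2135 over 2749 to 3240. DKO had 1817, 1006 and 1270 in G1 to G3 and 1952, 3658 and 1570 in H1 to H3, with H2 far above the other 5.

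The means of Slco1a4 were 2030 ± 724 in WT, 517 ± 119 in the libraries labelled Trib1-KO, 2710 ± 394 in Cebpa-KO and 1879 ± 938 in DKO. The fall in the libraries labelled Trib1-KO was 3.81-fold (log2 -1.93 ± 0.24, adjusted p = 1.32e-06, exact permutation p = 0.00216). Of all genes, 5.71% had every library labelled Trib1-KO below every WT library, and here 2 of the 6 did, Slco1a4 and Slco2a1. The difference was -1.69, -1.81 and -2.30 within the column numbers. Cebpa-KO, at 0.48 ± 0.24, did not pass (adjusted p = 0.254), nor did DKO at -0.16 ± 0.24 (adjusted p = 0.801).

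Because reads can be split wrongly within the Slco1a genes, the values of Slco1a1, Slco1a4, Slco1a5 and Slco1a6 were also added. The sum was 10898 ± 2272 in WT, 4574 ± 1489 in the libraries labelled Trib1-KO, 9754 ± 809 in Cebpa-KO and 9310 ± 2357 in DKO. On the log2 scale the libraries labelled Trib1-KO were at -1.30 against WT. Most of the sum is Slco1a1.

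Slco2a1 encodes the prostaglandin transporter, which brings prostaglandins into cells ahead of their oxidation. WT libraries had 2032, 2314 and 2190 normalized counts in A1 to A3 and 2016, 2642 and 2884 in B1 to B3. The libraries labelled Trib1-KO had 568, 483 and 487 in C1 to C3 and 564, 510 and 414 in D1 to D3. The highest of these lay far below the lowest library of any other group. Cebpa-KO ran from 1949 over 2343 to 2690, within the range of WT but for 2 libraries just under it. DKO ran from 2401 over 2868 to 2982, with 3 libraries above all of WT.

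The means of Slco2a1 were 2346 ± 349 in WT, 504 ± 57.5 in the libraries labelled Trib1-KO, 2304 ± 293 in Cebpa-KO and 2810 ± 217 in DKO. Its fall in the libraries labelled Trib1-KO was the largest of the 6 genes, at 4.63-fold (log2 -2.21 ± 0.10, adjusted p = 2.5e-14, exact permutation p = 0.00216), and it ranked 410 among 19810 genes by absolute log2 difference. Within the column numbers it was -1.84, -2.31 and -2.48. Cebpa-KO was at -0.02 ± 0.10 with a 95% interval from -0.23 to 0.18. DKO was at 0.27 ± 0.10 and did not pass (adjusted p = 0.119), but did without WT B3 (0.33, adjusted p = 0.0449).

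Slco2b1 encodes a broadly expressed OATP that takes up steroid sulfates and statins. It ran from 3119 over 4086 to 4778 in WT, 3289 over 3492 to 4327 in the libraries labelled Trib1-KO, 2630 over 3235 to 3764 in Cebpa-KO and 2802 over 3433 to 3946 in DKO. All groups overlapped. The log2 differences to WT were -0.11 ± 0.11, -0.31 ± 0.11 and -0.22 ± 0.11 in this order (adjusted p = 0.551, 0.0734 and 0.314). The first had the opposite sign, at 0.14 and 0.02, with 2 other scalings, by totals that leave out the major urinary protein family (the Mup-free scaling) and by quantile normalization. The Cebpa-KO difference passed with the Mup-free scaling (-0.36, adjusted p = 0.0291), without WT B2 (-0.38, 0.0252) and without Cebpa-KO F3 (-0.36, 0.0434).

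Slco3a1, which encodes a widely expressed prostaglandin and thyroid hormone carrier, was the scarcest of the 6. It ran from 79.2 to 107 in WT, 75.9 to 116 in the libraries labelled Trib1-KO, 62.5 to 155 in Cebpa-KO and 67.8 to 165 in DKO. The means were 94.1 ± 10.1, 99.1 ± 14.6, 92.6 ± 32.2 and 108 ± 36.5. No comparison of Slco3a1 passed, and the 95% interval of the log2 difference to WT was -0.35 to 0.48 in the libraries labelled Trib1-KO, -0.49 to 0.34 in Cebpa-KO and -0.28 to 0.55 in DKO.

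**Figure D3:**
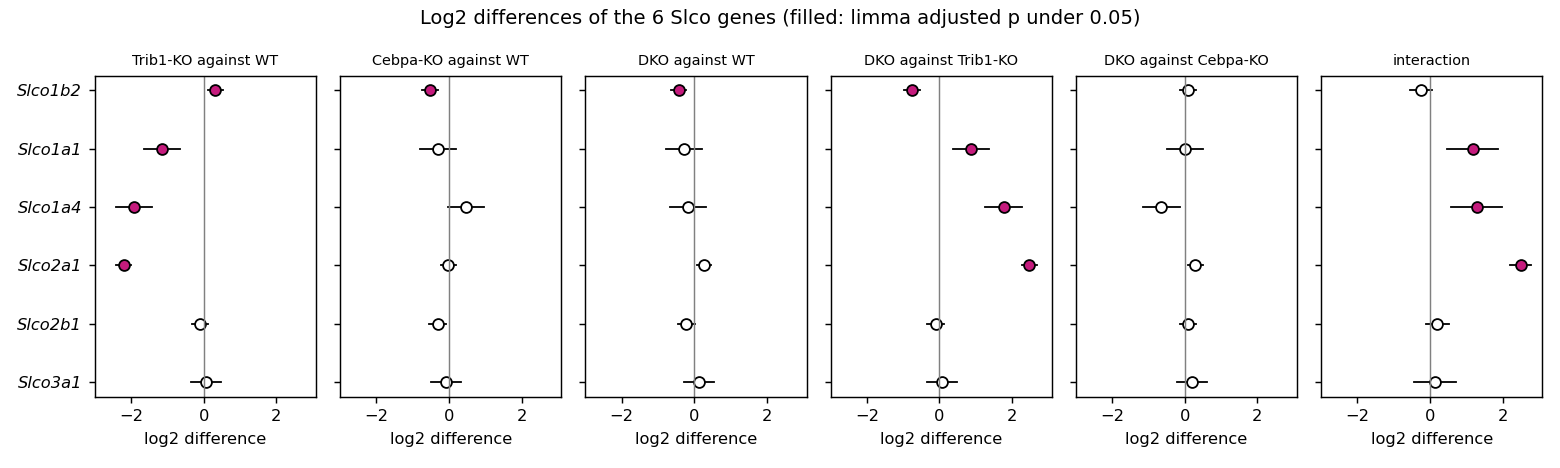
Points are limma log2 differences of the 6 genes in the 5 pairwise comparisons and the interaction, lines are 95% intervals, and filled points have an adjusted p under 0.05. In the first panel Slco2a1 (-2.21), Slco1a4 (-1.93) and Slco1a1 (-1.16) are filled on the left, and in DKO against Cebpa-KO no point is filled.

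The Trib1 contrast was then read with Cebpa deleted. In DKO against Cebpa-KO, limma called 0 of the 6 genes, and 0.202% of all genes. Before adjustment the limma p was under 0.05 for Slco1a4 and Slco2a1. The share of all genes under that unadjusted p was not computed. Slco1a4 was at -0.64 ± 0.24 (limma adjusted p = 0.378) and Slco2a1 at 0.29 ± 0.10 (limma adjusted p = 0.307). The exact permutation test gave an unadjusted p of 0.0455 and 0.0108 for the same genes. With Benjamini-Hochberg adjustment over 30 permutation tests these became 0.0974 and 0.0361, so that Slco2a1 was under 0.05 by this test and Slco1a4 was not. The 30 tests pool the 6 genes over 5 pairwise comparisons that share libraries. An adjustment within this comparison alone, and the share of all genes passing the permutation test, were not computed. For Slco2a1, 5 of 6 DKO libraries lay above all of Cebpa-KO, and for Slco1a4, 5 of 6 lay below all of them. How many of all genes have 5 of 6 libraries placed in this way was not computed.

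The interaction sets what the DKO libraries differ by from Cebpa-KO against what the libraries labelled Trib1-KO differ by from WT. It passed for 3 of the 6 genes, all with a value above 0, where 12.6% of all genes passed and 6.35% did so above 0. For Slco2a1 the differences were 0.29 with Cebpa deleted and -2.21 with Cebpa present, an interaction of 2.50 ± 0.14 (limma adjusted p = 7.17e-12). For Slco1a4 they were -0.64 and -1.93, an interaction of 1.29 ± 0.34 (adjusted p = 0.0122). For Slco1a1 they were 0.01 and -1.16, an interaction of 1.17 ± 0.34 (adjusted p = 0.0226), which did not pass with the Mup-free scaling (0.93, adjusted p = 0.0708) or quantile normalization (1.02, adjusted p = 0.0548). Slco1b2 had -0.24 ± 0.15 (adjusted p = 0.346), but passed with the same scalings (-0.48, adjusted p = 0.0277, and -0.57, adjusted p = 0.00319). Within the column numbers the interaction was 2.13, 2.45 and 2.93 for Slco2a1, 1.28, 1.41 and 1.19 for Slco1a4, and 1.67, 0.42 and 1.43 for Slco1a1.

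DKO against the libraries labelled Trib1-KO shares these libraries with the first comparison. Of the 6 genes 4 passed, against 30.3% of all genes, 14.6% higher and 15.7% lower. Slco2a1 was 5.58-fold higher in DKO (log2 2.48 ± 0.10, adjusted p = 9.28e-16) and Slco1a4 3.40-fold higher (1.77 ± 0.24, adjusted p = 2.63e-06), both without overlap, as for 8.14% of all genes. Slco1a1 was 1.84-fold higher (0.88 ± 0.24, adjusted p = 0.00639), which did not pass with the Mup-free scaling (0.60, adjusted p = 0.0617). Slco2b1 was not called, but with that scaling it passed as lower in DKO (-0.39, adjusted p = 0.00406). By column number the Slco1a1 difference was 1.18, 0.05 and 1.42.

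Scaling moved all differences that involve the libraries labelled Trib1-KO. The Mup-free scaling shifted the median of all genes from 0.01 to 0.24 in these libraries against WT, from -0.02 to -0.29 in DKO against them and from -0.01 to -0.24 in the interaction. Higher calls made up 51.8% of all calls in the libraries labelled Trib1-KO against WT, and 84.0% with that scaling. In DKO against them the share went from 48.3% to 18.6%, in the interaction from 50.5% to 17.8%, and in Cebpa-KO and DKO against WT from 46.9% to 35.8% and from 46.7% to 36.1%. Against this shift Slco2a1, Slco1a4 and Slco1a1 in the libraries labelled Trib1-KO remained called and lower under both other scalings.

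Cell type markers were read beside these values, since in whole liver fewer cells of a type and less RNA per cell cannot be told apart. Summed hepatocyte markers (9 measured of 10) ran from 773217 to 907014 in the libraries labelled Trib1-KO and from 1723346 to 2575087 in WT, where most of the sum is Alb, serum albumin, at 356731 ± 57778 and 1451667 ± 277014. In these libraries 0 of 9 rose and 6 fell against WT, where 11.8% of all genes were called higher and 10.9% lower. Summed sinusoidal endothelial markers (15 of 15) ran from 15761 to 16965 in the libraries labelled Trib1-KO and from 14859 to 17142 in WT, with 3 members higher and 2 lower. Summed Kupffer cell and macrophage markers (12 of 12) ran from 18896 to 22138 and from 9915 to 17988, with 10 higher and 0 lower. With the Mup-free scaling 0 hepatocyte markers were higher and 4 lower, 8 endothelial markers higher and 0 lower, and 11 Kupffer cell markers higher and 0 lower. That scaling called 5180 of all genes higher and 987 lower. All of these markers had a mean of at least 1. The part of these cell types in the fall of Slco2a1, Slco1a4 and Slco1a1 was not tested, and the endothelial sum was 1.01-fold that of WT where Slco2a1 was 0.216-fold.

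Other genes with an Slco symbol numbered 9 on the list read here. Slco6b1, Slco6c1 and Slco6d1 were listed at 0 in all 24 libraries, and Slco1a5, Slco4c1 and Slco5a1 had means under 1. Slco1a6, in the same cluster as Slco1a1, had 24.1 ± 8.62 normalized counts in WT, 19.9 ± 6.31 in the libraries labelled Trib1-KO, 21.4 ± 6.45 in Cebpa-KO and 23.2 ± 13.4 in DKO, with no call. Slco1c1, known for thyroxine transport in brain, had 2.11 ± 1.01 in WT. Slco4a1, an OATP of many tissues, had 10.1 ± 4.08 in WT and 2.73 ± 2.73 in DKO and was called lower in DKO against WT (log2 -1.80 ± 0.46, limma adjusted p = 0.0173) and against the libraries labelled Trib1-KO (log2 -1.40 ± 0.46, limma adjusted p = 0.0217).

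Around the cluster, from 500 kb before Slco1c1 to 500 kb after Slco1a5, 21 genes were measured, and values did not move as a block. Slco1c1 and Slco1a6, which flank the 3 genes, were not called in any comparison with WT, nor were Pyroxd1, Cmas, which activates sialic acid, or Gys2, the liver glycogen synthase. Between the 3 genes, Gm5724 was called higher in DKO against WT (1.33 ± 0.39, limma adjusted p = 0.0392), with means of 3.18 and 0.70. Gm30784, also between them, was called lower in DKO against WT (-0.85 ± 0.23, limma adjusted p = 0.0270). The antisense gene Gm20400, which lies within Slco1a6 on the opposite strand (142161493 to 142173796), was named after its values were seen. It had 149 ± 30.8 normalized counts in WT, 474 ± 32.1 in those labelled Trib1-KO (log2 1.68 ± 0.13, limma adjusted p = 3.34e-10), 79.8 ± 13.4 in Cebpa-KO (-0.89 ± 0.13, 3.64e-05) and 85.7 ± 7.91 in DKO (-0.77 ± 0.13, 3.57e-04). The library kit keeps strand, but whether the counting used it is not given in the sources used here, so reads of Gm20400 and Slco1a6 may not be told apart. St8sia1, a sialyltransferase gene at the far edge, was higher in the libraries labelled Trib1-KO, at 2.65 ± 0.69 there (limma adjusted p = 0.00595), and Abcc9 was lower in Cebpa-KO (-0.35 ± 0.09, adjusted p = 0.00943).

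**Figure D4:**
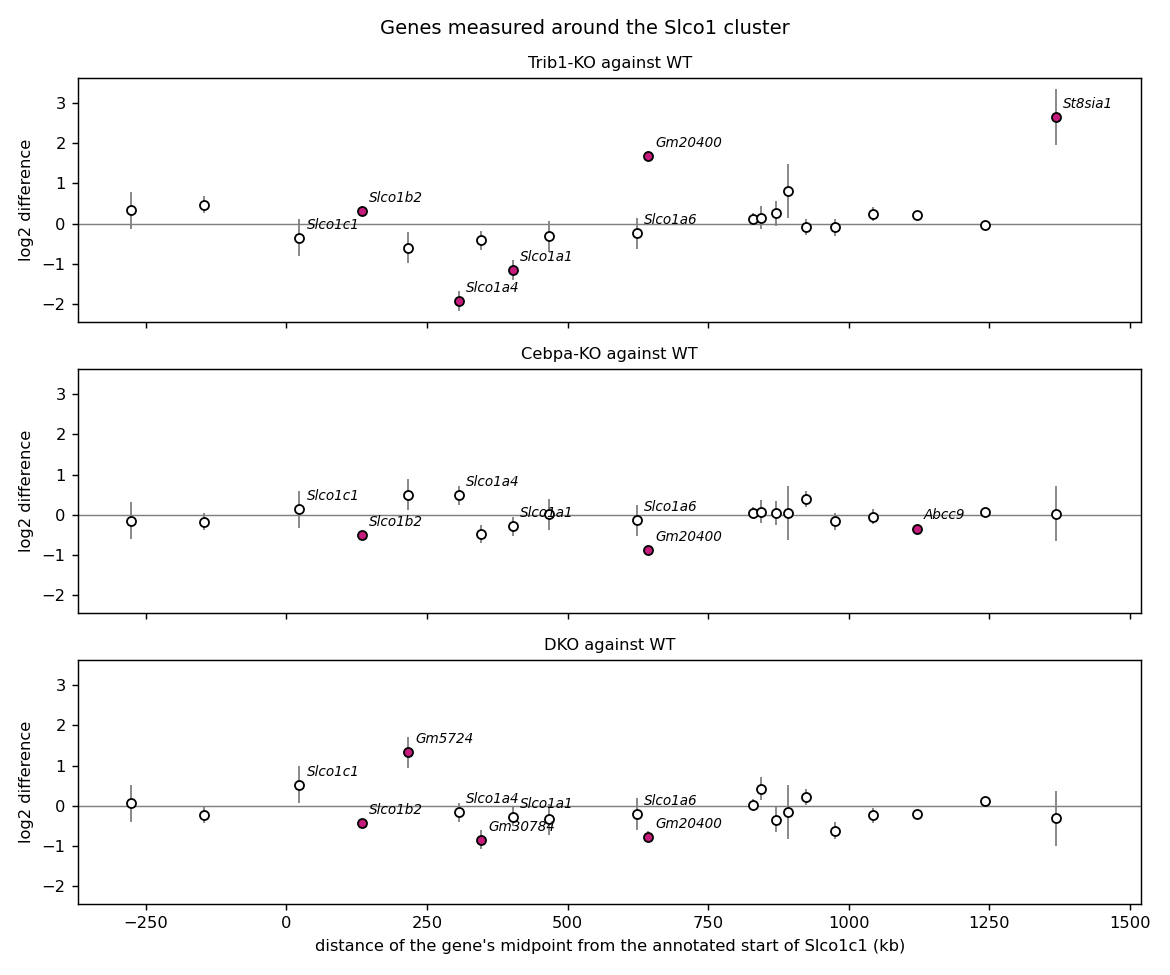
Points are limma log2 differences to WT with their SE for the 21 genes measured around the cluster, placed by the distance of their midpoint from the start of Slco1c1 in kb, and filled points have an adjusted p under 0.05. In the libraries labelled Trib1-KO, Slco1b2 (0.32) and Gm20400 (1.68) lie above 0 on either side of Slco1a4 (-1.93) and Slco1a1 (-1.16).

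Other organic ion carriers of the SLC families, Slc10 and Slc22 genes among them, went both ways. In the libraries labelled Trib1-KO, 4 of 16 measured members of this list rose against WT, 7 fell and 5 did not pass the test, with a median of -0.30 against 0.01 over all genes. Of all genes 11.8% were called higher and 10.9% lower. With the Mup-free scaling 6 rose and 5 fell, with a median of -0.07, where 5180 of all genes were called higher and 987 lower. Slc22a7, the organic anion carrier OAT2, was at 27.6 normalized counts against 354 in WT (-3.66 ± 0.42, adjusted p = 3.04e-07) and Slc22a28 at 55.6 against 403 (-2.87 ± 0.23, 8.64e-10). Slc22a18 was at -0.93 ± 0.07 (9.62e-11), and Slc22a3, the organic cation carrier OCT3, at 2.62 ± 0.27 (5.72e-08). In Cebpa-KO 4 of 16 rose and 2 fell, where 9.82% of all genes passed. Slc10a1, the sodium-dependent bile acid carrier NTCP of the same membrane, fell from 9814 to 4941 normalized counts (-0.98 ± 0.08, adjusted p = 3.67e-09), as Slco1b2 fell. Slc22a15 was at -0.98 ± 0.13 (8.45e-06), Slc10a2, the bile acid carrier ASBT, at 0.87 ± 0.20 (0.00564) and Slc22a18 at 0.32 ± 0.07 (0.00196).

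Of ABC efflux pumps, 3 of 14 rose and 4 fell in the libraries labelled Trib1-KO, and likewise 3 and 4 in Cebpa-KO, with medians of 0.16 and 0.00. Of all genes 22.7% and 9.82% passed in these comparisons. In the first, Abcb1a, a P-glycoprotein gene, was at 1.47 ± 0.25 (limma adjusted p = 7.16e-05) and Abcb4, the canalicular phospholipid floppase, at 0.37 ± 0.07 (0.000518). Abcg2, which exports sulfated anions, was at -0.61 ± 0.11 (0.000137), and Abcc6 at -0.58 ± 0.10 (0.000109). In Cebpa-KO, Abcg2 was at 0.78 ± 0.11 (1.85e-05), Abcc4, a basolateral bile acid and nucleotide pump, at 0.94 ± 0.24 (0.0103), Abcb4 at -0.49 ± 0.07 (5.98e-05) and the sterol pump gene Abcg8 at -0.63 ± 0.10 (0.000117). With the Mup-free scaling the counts in the libraries labelled Trib1-KO became 7 and 2, where 5180 of all genes were called higher and 987 lower.

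Regulators known to control hepatic transporters numbered 4 up and 6 down of 21 in the libraries labelled Trib1-KO, 7 and 3 with the Mup-free scaling. Of all genes 11.8% were higher and 10.9% lower there, and with the Mup-free scaling 5180 genes were higher and 987 lower. Nr1i3, which encodes the xenobiotic receptor CAR, was at 2076 normalized counts against 5477 in WT (-1.39 ± 0.15, adjusted p = 1.49e-07). Nfe2l2, the antioxidant regulator NRF2, was at 0.86 ± 0.10 (5.25e-07), Ghr, the growth hormone receptor, at -0.54 ± 0.08 (8.16e-06), and Nr1h4, the bile acid receptor FXR, at 0.45 ± 0.08 (0.000173). In Cebpa-KO 2 rose and 3 fell, among them Esr1, the estrogen receptor α, at -1.28 ± 0.21 (0.000189), and Stat5b and Stat5a, which act downstream of growth hormone, at -0.39 ± 0.09 (0.00686) and -0.42 ± 0.12 (0.0302), while Ghr was at 0.29 ± 0.08 (0.0153). With the Mup-free scaling 0 rose and 5 fell there, and Ghr missed the threshold (0.25, adjusted p = 0.0505). Of all genes 9.82% passed in Cebpa-KO with the main scaling.

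Sex-biased liver genes were read because Slco1a1 is known as male-biased. All samples are labelled male. In the libraries labelled Trib1-KO, 0 of 14 measured male-biased genes rose and 7 fell (median -0.96), and 11 of 20 female-biased genes rose and 0 fell (median 3.12). Of all genes 22.7% passed there and 9.82% in Cebpa-KO. With the Mup-free scaling 2 male-biased genes rose and 7 fell, and 12 female-biased genes rose and 0 fell. With quantile normalization 11 female-biased genes rose and 1 fell. Mup7, on the male-biased list, was at 902974 ± 103211 normalized counts against 292251 ± 151568 in WT, with no call. Selenbp2, a selenium-binding protein gene, was at -7.71 ± 0.33 (adjusted p = 1.25e-14), Mup20 at -3.17 ± 0.22 (9.62e-11), Sult3a1, a sulfotransferase gene, at 8.92 ± 0.33 (8.04e-16) and Cyp17a1 at 4.35 ± 0.31 (8.8e-11). Slco1a4, known for a higher level in female liver, was lower in the same libraries. In Cebpa-KO, 2 male-biased genes rose and 7 fell (median -1.55), and 0 female-biased genes rose and 3 fell, where Slco1a1 did not pass.

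**Figure D5:**
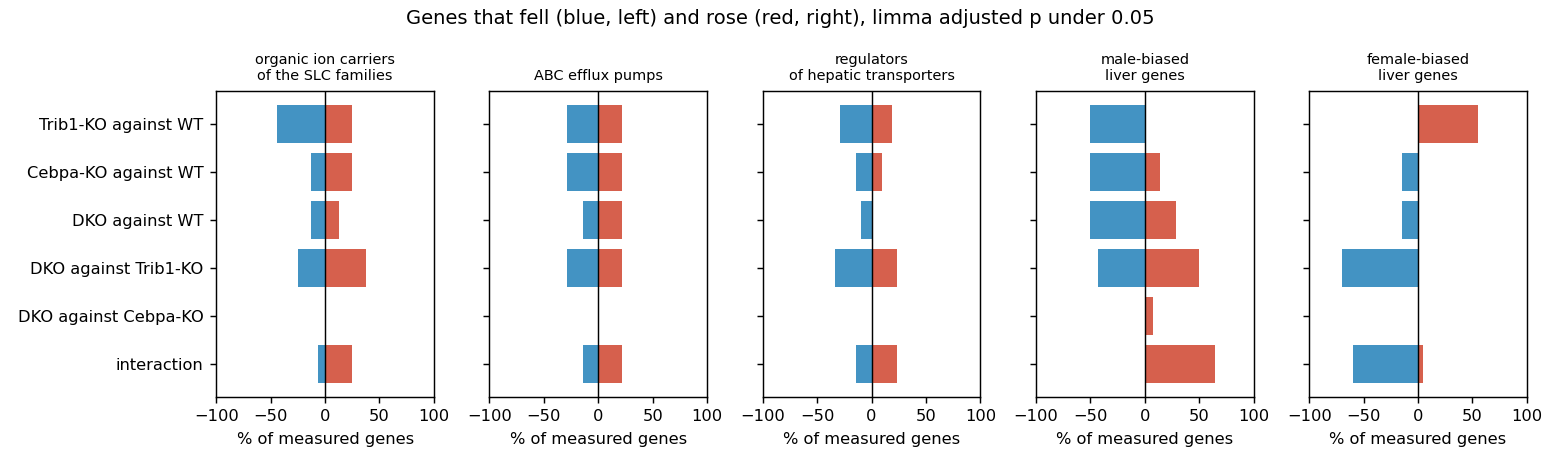
Bars give the percent of measured genes in each of 5 lists that were called higher (right) or lower (left) in each comparison, at a limma adjusted p under 0.05. Female-biased genes lie on the right in the libraries labelled Trib1-KO (11 of 20), and DKO against Cebpa-KO shows 1 male-biased gene and no other bar.

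Prostaglandin genes were read beside Slco2a1. Of 16 measured genes of synthesis, breakdown and receptors, 3 rose and 2 fell in the libraries labelled Trib1-KO (median 0.37). Of all genes 22.7% passed there and 9.82% in Cebpa-KO. With the Mup-free scaling 6 rose and 0 fell (median 0.58), where 5180 of all genes were called higher and 987 lower. Ptgr1, a prostaglandin reductase gene, was at 1.88 ± 0.29 (adjusted p = 2.28e-05), Hpgds, a prostaglandin D synthase gene, at 1.99 ± 0.49 (0.00361) and the receptor gene Ptger4 at 1.56 ± 0.46 (0.0141). Hpgd, which encodes the dehydrogenase that inactivates prostaglandins after uptake, was at -0.47 ± 0.14 (0.0132), and did not pass with the Mup-free scaling (-0.22, 0.196). In Cebpa-KO 1 rose and 1 fell, namely Ptgr2 at 0.31 ± 0.08 (0.00749) and Ptges, a prostaglandin E synthase gene with 12.1 normalized counts in WT, which fell to 2.95 (0.0189).

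Genes that handle 2 other OATP cargoes were read from lists that, like the others, were chosen with earlier results of these data known. Of all genes 22.7% passed in the libraries labelled Trib1-KO against WT and 9.82% in Cebpa-KO against WT. In the first, the Mup-free scaling called 5180 of all genes higher and 987 lower. In bilirubin handling 2 of 5 rose and 1 fell in the libraries labelled Trib1-KO, and 3 and 0 with the Mup-free scaling. Hmox1, heme oxygenase, was at 0.69 ± 0.12 (adjusted p = 8.39e-05) and Ugt1a1, which conjugates bilirubin, at 0.40 ± 0.10 (0.00350). In Cebpa-KO Ugt1a1 was at -0.37 ± 0.10 (0.0155), and in DKO, where it did not pass, at -0.31 ± 0.10 (0.0609). The biliverdin reductase gene Blvrb was at -0.39 ± 0.13 (0.0381) and 0.48 ± 0.13 (0.0220), but with the Mup-free scaling both values missed the threshold. Of 10 measured genes of thyroid hormone transport and conversion, 3 rose and 2 fell in the libraries labelled Trib1-KO, and 5 and 2 with the Mup-free scaling (median 0.29). Dio1, the hepatic deiodinase, was at 1.31 ± 0.23 (0.000132), the carrier gene Slc7a8 at 1.09 ± 0.14 (1.8e-06), the lipogenic hormone-responsive gene Thrsp at 1.20 ± 0.35 (0.0133) and Ttr, which carries thyroxine in plasma, at -0.51 ± 0.09 (0.000112). In Cebpa-KO 2 rose and 0 fell, with the carrier gene Slc17a4 at 1.23 ± 0.16 (5.51e-06) and Ttr at 0.45 ± 0.09 (0.00114).

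Genes whose level followed each transporter most closely over the 24 libraries were ranked by Pearson r of log2 values, among 9551 genes with a mean of at least 100 in the 24 libraries. The libraries share the 4 groups, so r includes group differences, and it is given as a description. Slco2a1 was followed by Mug1 (murinoglobulin, a plasma protease inhibitor), Tspan33 (a tetraspanin) and Enho (adropin), all with r = 0.98. Slco1b2 was followed by Chpt1 (a choline phosphotransferase, 0.95), Mgst1 (a microsomal glutathione transferase, 0.95) and Pdilt (0.93). Slco1a4 was followed by Alb (0.92), Agxt (a peroxisomal aminotransferase, 0.91) and Cgn (the junction protein cingulin, 0.91), and Slco1a1 by the anion carrier gene Slc22a30 (0.88), the male-biased steroid enzyme gene Hsd3b5 (0.84) and Ogfod2 (0.83). For Slco2b1 the closest was Etnk2 (ethanolamine kinase, 0.80) and for Slco3a1 Fam173a (0.67).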

How the data were processed

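The deposited values are a signal per gene, namely estimated counts over a size factor that the authors fitted to each library. Salmon, DESeq2 and GRCm38.p6 are named in the submitters' processing notes, with versions and settings not given in the sources used here, and the scaling was read from the values. Libraries were stranded and poly(A)-selected, per the labels' protocols. Column names give a group with a letter and a number and no sample, so no column was placed in a cohort.

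GENCODE M21 matched 54050 (99.3%) of the identifiers. The log2(value + 1) was fitted in limma 3.58.1, run in R 4.3.3 and with its intensity trend, for genes with a mean of at least 1, as 1 model of the 4 group means, and 6 comparisons were read from it with Benjamini-Hochberg adjustment over 19810 genes. The fit was also run on simulated libraries with known fold changes and the same dispersion for all genes, and the outcome is not given here. Alternatives were another pseudocount, filter, trend, scaling, column number or letter as a term (the letter chosen after the data were seen), only the groups compared, and each library left out.

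The 6 genes and the gene lists were chosen with earlier results of these data known. Up to 4 measured genes with the smallest adjusted p were named per list. Patterns like each gene were ranked by Pearson r. Reads per library were estimated from the step between low values, and no interval for counting error is given. Protein sequences were not used here.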

Additional observations from a re-analysis of the deposited data

Results flagged for a closer look

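The effect labelled Trib1 differed with and without Cebpa for 3 of the 6 genes by the limma interaction, with values of 2.5028 for Slco2a1, 1.2905 for Slco1a4 and 1.1738 for Slco1a1 on the log2 scale (adjusted p = 7.17e-12, 0.0122 and 0.0226). Of all genes 12.6% passed, 6.35% above 0. The Slco1a1 value missed the threshold with the Mup-free scaling (0.93, adjusted p = 0.0708) and with quantile normalization (1.02, adjusted p = 0.0548).

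Single libraries stood far from the rest of their group in 3 of the 24 sets of 6 libraries examined. The rule was Dixon's, a gap to the nearest library of more than 0.625 of the range. It was read on normalized counts, not on the log2 values that limma fitted. About 1 in 20 sets would meet it by chance if values were normally distributed and sets independent. These sets share libraries, and counts need not be normally distributed. Library H2 was the highest of DKO for Slco1a4 at 3658.42 normalized counts, against a group mean of 1879 ± 938. Library G3 was the lowest of DKO for Slco2a1 at 2401.13, against 2810 ± 217. Library E1 was the highest of Cebpa-KO for Slco3a1 at 155.197, against 92.6 ± 32.2.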

How the results depend on the processing

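Slco1a1, Slco1a4 and Slco2a1 stayed called and lower in the libraries labelled Trib1-KO against WT under all 10 alternative settings and with each of the 24 libraries left out, with log2 ranges of -1.32 to -0.91, -2.04 to -1.69 and -2.25 to -1.97. The Slco1b2 rise did not pass with only the groups compared (0.32) and in 3 of 24 fits without 1 library (range 0.21 to 0.38). It stayed called in 9 of the 10 alternative settings, which ranged from 0.32 to 0.63. No paired analysis was possible because the columns carry no number of a sample. The column number as a term changed no call of the 6 genes. Neither did the column letter (first or second of each group), a term chosen after the data were seen. It assumes that first letters go together, and no source here says that letters are cohorts.

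The number of the 6 genes called was 2 instead of 1 in Cebpa-KO against WT with the Mup-free scaling, and ranged from 1 to 2 without 1 library. In DKO against WT it was 0 with only the groups compared, and 1 to 2 without 1 library. In DKO against Cebpa-KO the count over all genes was 40, but 25 with no filter, 23 with no intensity trend, 61 with column number as a term, 19 with only the groups compared and 18 to 63 without 1 library. Causes were not tested.

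Signs turned for values near 0. With the Mup-free scaling Slco2b1 was 0.137 in the libraries labelled Trib1-KO against WT and -0.0337 in the interaction, and Slco3a1 was -0.2153 against the libraries labelled Trib1-KO in DKO and -0.0976 in the interaction. With quantile normalization Slco2b1 was 0.0215 and Slco3a1 -0.0878 in the libraries labelled Trib1-KO against WT. Without 1 library, Slco2a1 in Cebpa-KO against WT ranged from -0.0697 to 0.0390 and Slco3a1 from -0.234 to 0.0255, Slco3a1 from -0.0038 to 0.2505 in DKO against WT and from -0.0712 to 0.1831 in DKO against those labelled Trib1-KO, and Slco1a1 from -0.1065 to 0.1427 in DKO against Cebpa-KO.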
